A study of Mus musculus with 12 samples.

Results

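The Pim kinases were followed in cytotoxic T lymphocytes (CTL) through every probe set annotated to Pim1, Pim2 or Pim3, 3 of the 18193 genes and 6 of the 45037 probe sets tested. Pim1 has 2 of them, Pim2 has 1 and Pim3 has 3. Each probe set was read on its own. The family was chosen by annotation, but with its values in Pdpk1-null and Cre control CTL already known, above all the disagreement of the Pim1 probe sets. Its values in that contrast are therefore given as a description, with no p. The stated reason for the choice did not draw on the arrays of the AktI experiment. Earlier results of these data were known, however, so the AktI p-values of the family are not those of an independent test. Gene expression was measured on 12 Affymetrix mouse expression arrays, 3 per group and 1 mouse per array within a group, in 2 separate experiments.

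All CTL came from spleens of C57BL/6 mice. Activation lasted 48 hr, with CD3 antibody (2C11) at 0.5 μg/ml, and culture in IL-2 at 20 ng/ml went on for a further 5 days. The study names IL-2 during activation for the AktI experiment, but not for the Pdpk1-deleted CTL. Cre control CTL carried C57BL/6GT(ROSA)26tm9(creEsr1)Arte (TamoxCre), a Cre recombinase that is switched on by tamoxifen and is expressed from the ROSA locus, and Pdpk1-null CTL carried TamoxCre with floxed Pdpk1 alleles (PDK1fl/fl). Both had 0.6 μM 4OHT, the active form of tamoxifen, for the last 72 hr, so the Cre and the drug are shared by control and null cells. Since Cre is not restricted to a cell type, any cell in the culture could delete Pdpk1. In the other experiment wild-type CTL of 3 mice had IL-2 alone, or IL-2 with 1 μM of the Akt inhibitor AktI-1/2 (AktI) for the last 48 hr, each mouse giving cells to both arms.

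PIM proteins are serine/threonine kinases that are active as soon as they are made, so their transcript level and protein turnover set how much activity a cell has. Cytokine receptors that signal through JAK kinases and STAT proteins, the IL-2 receptor among them, induce Pim transcription. PIM and Akt share several substrates in cell survival, translation and the cell cycle, and in T cells Pim1 and Pim2 are known for maintaining growth and survival. PDK1, the product of Pdpk1, phosphorylates and activates Akt and related kinases.

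The bases just upstream of the starts of Pim2 and Pim1, the 2 genes with a called probe set, were read from the RefSeq promoter table, build GRCm38.p6. RefSeq gives Pim1 2 starts, and both are shown because its probe sets differed. Each window holds 250 bases, is printed 5′ to 3′ on the plus strand of the chromosome and ends 1 base before the start. The Pim2 window lies at chrX:7878056-7878305, and the Pim1 windows lie at chr17:29490535-29490784 and chr17:29492835-29493084. The latter is downstream of the first start and so inside the gene as transcribed from there, and whether it is exonic or intronic in that transcript was not analysed here. Capitals mark matches to the octamer ATGCAAAT, or its reverse complement ATTTGCAT, in Pim2 and to the forkhead (FOXO) motif GTAAACA in Pim1.
Pim2: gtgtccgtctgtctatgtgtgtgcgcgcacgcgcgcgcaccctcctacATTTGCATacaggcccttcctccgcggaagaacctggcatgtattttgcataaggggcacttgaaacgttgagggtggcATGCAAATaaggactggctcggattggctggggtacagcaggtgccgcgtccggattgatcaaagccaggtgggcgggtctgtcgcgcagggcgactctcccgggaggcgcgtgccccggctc
Pim1, first start: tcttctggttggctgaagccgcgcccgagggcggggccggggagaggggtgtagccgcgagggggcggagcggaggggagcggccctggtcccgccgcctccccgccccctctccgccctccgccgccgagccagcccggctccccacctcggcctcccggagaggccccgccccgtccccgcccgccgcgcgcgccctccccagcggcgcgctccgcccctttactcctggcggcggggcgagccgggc
Pim1, second start: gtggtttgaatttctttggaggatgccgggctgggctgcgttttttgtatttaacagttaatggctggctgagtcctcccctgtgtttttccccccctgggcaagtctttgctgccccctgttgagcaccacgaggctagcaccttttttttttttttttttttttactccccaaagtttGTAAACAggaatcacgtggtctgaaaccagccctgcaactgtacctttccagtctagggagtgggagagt

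Both strands were searched for 3 motifs. The octamer was found at base -202 (as its reverse complement) and at base -123 of Pim2, counted back from the start. Of 32851 promoter windows of the same length, 1.60% hold at least 1 octamer and 0.0974% hold 2 or more; this motif was picked after the sequence had been read. GTAAACA was found at base -70 of the second Pim1 start, and 3.17% of windows hold it, while the window of the first start held none of the 3 motifs. The STAT motif TTCNNNGAA, present in 7.02% of windows, had no match in these 3 windows or in that of Pim3 at chr15:88861944-88862193, which had no match to any of the 3 motifs. No 2 of these motifs overlap in the windows. These are letter matches, and the arrays do not measure what binds there.

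The arrays were alike within groups (r from 0.996 to 0.998 across probe sets). Median log2 signals lay between 4.606 and 4.628 on arrays of the Pdpk1 experiment, but between 5.102 and 5.141 on those of the Akt experiment, so levels were not compared between them. The background, taken from 80 probe sets of olfactory and vomeronasal receptors, was a log2 signal of 4.45 and 4.99. All 6 CTL markers were above it, with Cre control means from 9.74 (Cd3e) to 14.05 (Gzmb), and Cd8a was at 11.42. None of the CTL markers was called after Pdpk1 deletion. Prf1, which encodes perforin, differed by -0.67 there (1.59-fold, limma adjusted p 0.140) and fell by 2.20 with AktI (limma adjusted p 0.000164). In Cre control CTL, the 3 markers of CD4 T cells had means from 4.42 to 6.65, the 5 of B cells from 3.06 (Ms4a1) to 5.43, and the 6 of myeloid cells from 3.36 (Itgam) to 6.35. Their summed linear signals were 197, 135 and 244 in Cre control and 188, 139 and 273 in Pdpk1-null CTL. In the Akt experiment they were 259, 212 and 348 in wild-type CTL and 242, 228 and 242 with AktI, where the myeloid gene Cd68 fell by 1.30 (adjusted p 0.00563) and no other marker of these lists was called. Their part in the Pim values was not tested. RNA came from whole cultures, so a change in the share of a cell type and a change in RNA per cell cannot be told apart. Pdpk1 itself did not mark the null arrays: its 2 probe sets differed by 0.05 (SE 0.0693, adjusted p 0.822) and -0.04 (SE 0.0658, adjusted p 0.853). Whether their probes lie in the deleted part was not known here, so these probe sets check nothing. The study itself checked the deletion by immunoblot of PDK1 in CTL treated with 4OHT.

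A probe set was called when it passed a limma adjusted p of 0.05 over all 45037 probe sets and changed at least 1.5-fold. After Pdpk1 deletion 1 Pim1 probe set and the Pim2 probe set were called higher, and no probe set of the family was called lower. Of all probe sets 1.02% were called in either direction in this comparison. The groups did not overlap for 4 of the 6, and for 21.3% of all probe sets. The median change of the 6 was 0.23 on the log2 scale, and that of all probe sets was -0.01. The contrast was known when the family was chosen, and nothing is read from these counts.

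Pim1, the family member first known as an oncogene activated by a retrovirus in mouse lymphoma, gave a different size of change at each of its probe sets. At 1423006_at the log2 signals were 6.95, 7.17 and 7.00 on the Cre control arrays and 9.07, 8.83 and 9.02 on the Pdpk1-null arrays. Every null array was above every control array, by at least 1.65. The difference was 1.93 (SE 0.0930, 3.82-fold). At 1435458_at the signals were 9.72, 9.76 and 9.76 in Cre control and 10.00, 10.06 and 10.11 in Pdpk1-null CTL. These groups were also apart, by at least 0.24, but the difference was 0.31 (SE 0.0657, 1.24-fold), under the fold minimum.

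The changes of the Pim1 probe sets thus differed by 1.62. Among 5317 genes with several probe sets above background the median difference between the highest and lowest change was 0.11; this disagreement was known when the family was chosen, and nothing is read from it. With AktI the same Pim1 probe sets differed in their change by 0.03, and 86.0% of 5306 genes had a larger difference between theirs. Which stretch of the Pim1 transcript each probe set reads was not analysed here.

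**Figure D1:**
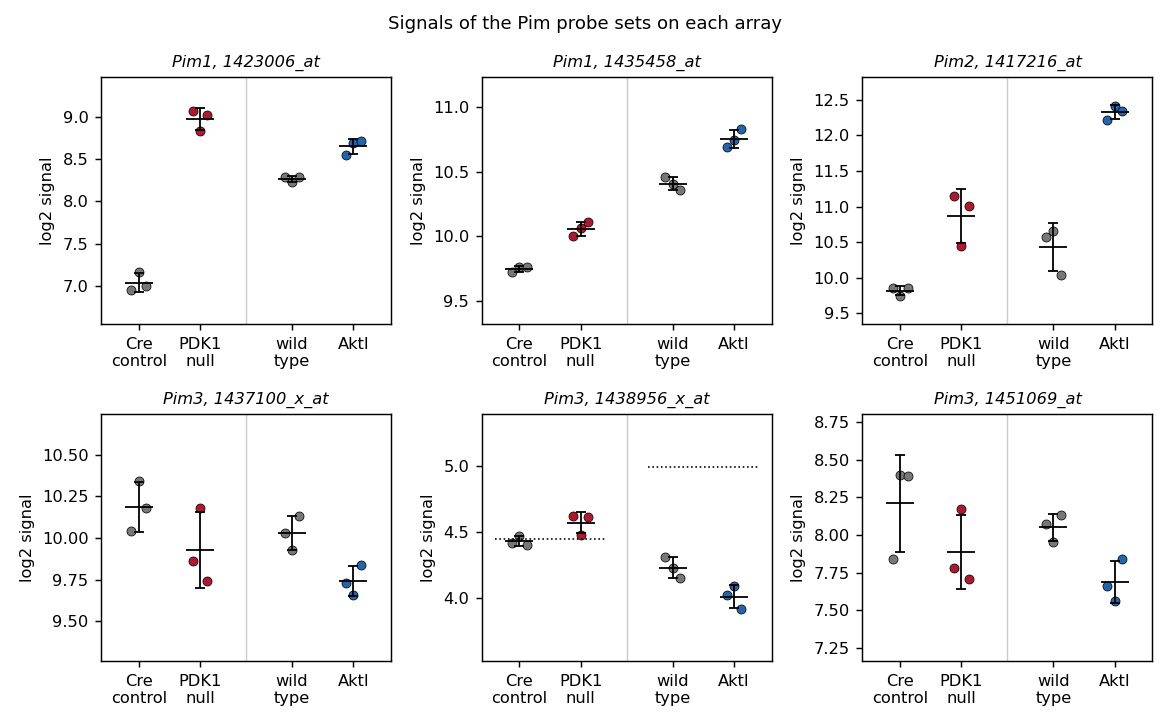
Log2 signal of each Pim probe set on each of the 12 arrays, one panel per probe set, with a vertical line between the experiments. Points are arrays, bars are the mean ± SD of 3 arrays, and the dotted line in the panel of 1438956_x_at is the background of each experiment; the null arrays of Pim1 1423006_at lie at 8.83 to 9.07, above Cre controls at 6.95 to 7.17, and the AktI arrays of Pim2 lie at 12.22 to 12.42, above wild type at 10.04 to 10.66.

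Pim2, which is known to promote the survival of lymphocytes, had 1 probe set, 1417216_at. Its log2 signals were 9.85, 9.75 and 9.86 in Cre control and 11.15, 10.44 and 11.01 in Pdpk1-null CTL. The groups did not overlap, but the second null array was well below the others, and the SD was 0.38 among null arrays and 0.06 among controls (n = 3 each). The difference was 1.05 (SE 0.165, 2.06-fold). The call ended when any 1 Cre control array, or null replicate 1 or 3, was left out, and held without null replicate 2, where the count of called Pim probe sets stayed at 2 against 1 in the other cases. Across all 15 alternatives the difference was between 0.90 and 1.26.

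Pim3, the third kinase of the family, was not called at any of its probe sets. At 1437100_x_at the signals were 10.04, 10.34 and 10.18 in Cre control and 9.86, 10.18 and 9.74 in Pdpk1-null CTL, and the groups overlapped. At 1451069_at they were 7.84, 8.40 and 8.39 against 7.78, 8.17 and 7.71, and the groups overlapped as well. The differences were -0.26 (SE 0.125) and -0.32 (SE 0.172). The third probe set, 1438956_x_at, lay at the background, with 4.42, 4.47 and 4.40 in Cre control and 4.62, 4.48 and 4.61 in null cells, and differed by 0.14 (SE 0.0702).

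With AktI the Pim2 probe set rose and was the only 1 of the 6 to be called. Of all probe sets 1.94% were called in either direction. The groups did not overlap for any of the 6 probe sets, as for 23.5% of all, with both Pim1 probe sets higher and all Pim3 probe sets lower. The median change of the 6 was 0.06, beside -0.01 for all probe sets.

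Pim2 had log2 signals of 10.58, 10.66 and 10.04 on the wild-type arrays and 12.22, 12.42 and 12.34 on the AktI arrays. All AktI arrays were at least 1.56 above the highest wild-type array, and the wild-type arrays spread more (SD 0.33) than the AktI arrays (SD 0.10). The difference was 1.90 (SE 0.151, 3.73-fold, limma adjusted p 0.000329), and 24 probe sets (0.0533%) rose further. Cells of mouse 1, 2 and 3 rose by 1.64, 1.76 and 2.30. The call held in all 15 alternatives, with differences from 1.71 to 2.02 and adjusted p from 3.60e-05 to 0.00248.

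Pim1 at 1423006_at had signals of 8.29, 8.23 and 8.29 in wild-type and 8.55, 8.69 and 8.71 in AktI-treated CTL. At 1435458_at they were 10.46, 10.40 and 10.36 against 10.69, 10.74 and 10.83. Both probe sets were higher with AktI in the cells of each mouse. The differences of 0.38 (SE 0.0704, 1.30-fold, limma adjusted p 0.0181) and 0.35 (SE 0.0679, 1.28-fold, adjusted p 0.0221) passed the adjusted p but not the fold minimum. Over the alternatives their adjusted p ran from 0.00201 to 0.0796 and from 0.00102 to 0.0829.

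Pim3 at 1437100_x_at had signals of 10.03, 9.93 and 10.13 in wild-type and 9.73, 9.66 and 9.84 in AktI-treated CTL. At 1451069_at they were 8.07, 7.95 and 8.13 against 7.66, 7.56 and 7.84. The AktI arrays were all below the wild-type arrays, by narrow margins of 0.09 and 0.12 or more. The differences of -0.29 (SE 0.0802, limma adjusted p 0.0857) and -0.36 (SE 0.0884, adjusted p 0.0541) did not pass; over the alternatives the adjusted p ran from 0.0151 to 0.254 and from 0.0130 to 0.213. Within each mouse 1437100_x_at differed by -0.30, -0.27 and -0.30. The dim probe set 1438956_x_at, below background here at 4.31, 4.23 and 4.15 against 4.02, 4.09 and 3.92, differed by -0.22 (SE 0.0745, adjusted p 0.153).

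**Figure D2:**
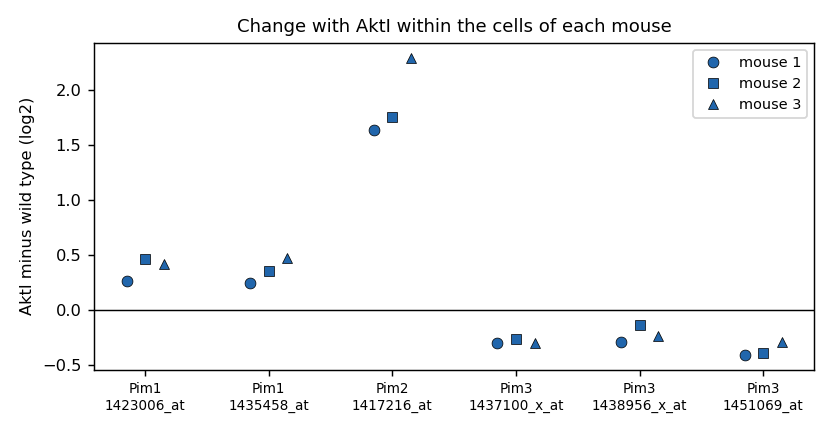
Difference in log2 signal between AktI-treated and untreated CTL of the same mouse (vertical axis) for each Pim probe set, with one symbol per mouse. Pim2 lies at 1.64 to 2.30, both Pim1 probe sets lie above 0 in all 3 mice, and the Pim3 probe sets lie below 0 in all 3.

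Side by side, Pim1 at 1423006_at differed by 1.93 after Pdpk1 deletion and by 0.38 with AktI, whereas Pim2 differed by 1.05 and 1.90. The second Pim1 probe set differed by 0.31 and 0.35. The brighter Pim3 probe sets differed by -0.26 and -0.32 after deletion and by -0.29 and -0.36 with AktI. The dim Pim3 probe set 1438956_x_at differed by 0.14 and -0.22. The difference between the effects was not tested for the family, because its Pdpk1 contrast was known when it was chosen, and the experiments also differ in time, drug and genotype of the controls.

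**Figure D3:**
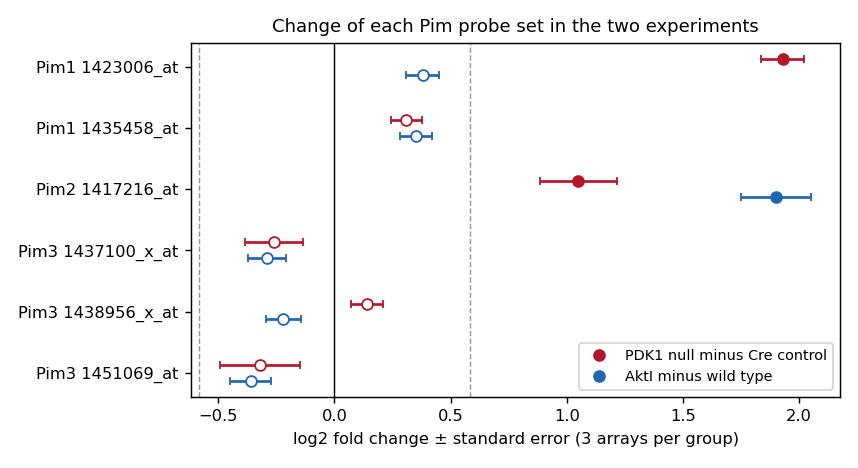
Log2 fold change of each Pim probe set (horizontal axis) with its standard error, in Pdpk1-null against Cre control CTL and in AktI-treated against wild-type CTL, 3 arrays per group. Filled points were called and dashed lines mark 1.5-fold; Pim1 1423006_at stands at 1.93 and 0.38, and Pim2 at 1.05 and 1.90.

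Genes on either side of the kinases in the IL-2 pathway were read from lists with 1 probe set per gene. Of 18193 genes, 1.01% were called higher and 0.357% lower after Pdpk1 deletion, and 1.51% and 1.03% with AktI. All adjusted p-values of single genes are those of limma over all probe sets. The share of all genes at an unadjusted p under 0.05 was not worked out. Nothing is therefore read from the counts of list genes at that threshold, here or below. Upstream of Pim transcription, 7 of the 8 IL-2 receptor, JAK and STAT genes had a probe set of their own, and none was called in either comparison (at an unadjusted p under 0.05, 2 were lower in each). The largest differences after deletion were those of the receptor chains Il2ra (-0.43, adjusted p 0.0774) and Il2rb (-0.37, 0.0806). With AktI they were those of the transcription factor Stat3 (-0.33, 0.0597) and of Il2rb (-0.29, 0.107), at the brightest probe set of each gene. The probe sets of Il2ra disagreed with AktI: the brightest differed by 0.07 (0.759) and the other by 0.51 (0.00309), under the fold minimum.

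Of 10 other genes that STAT5 induces, at the brightest probe set of each, 1 was called higher and none lower after deletion, and 2 higher and none lower with AktI. At an unadjusted p under 0.05 there were 3 higher and 2 lower after deletion, and 4 higher and 3 lower with AktI. The AktI count depends on the probe set: Bcl2l1, which encodes the survival protein Bcl-xL, differed by -0.48 at its brightest probe set (adjusted p 0.0132, under the fold minimum), but 2 of its other 3 probe sets fell, by 0.70 (0.00694) and 0.69 (0.00264). Socs3, a feedback inhibitor of cytokine receptors, rose by 0.83 (adjusted p 0.0271) and by 0.84 (0.00122). Socs2, of the same family, rose by 0.95 with AktI (0.000260) and differed by 0.23 after deletion (0.493). The Socs3 call after deletion, at its brightest probe set, ended without any 1 Cre control array or without null replicate 1 or 3. The other probe sets of Socs3 differed after deletion by 0.84 (0.0345, called) and 0.52 (0.0423, under the fold minimum). The median change of the list was 0.01 and -0.08, beside -0.01 and -0.02 for all genes. Cish, a standard STAT5 target, differed by -0.07 (0.734) and -0.14 (0.345).

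Among 24 genes whose proteins PIM kinases phosphorylate, again at the brightest probe set, 2 were called higher and none lower after deletion, and 3 higher and 1 lower with AktI, with medians of 0.00 and 0.03. At an unadjusted p under 0.05 there were 4 higher and 3 lower after deletion, and 6 higher and 6 lower with AktI. The AktI count again depends on the probe set: the stress kinase gene Map3k5 differed by 0.50 at its brightest probe set (adjusted p 0.0119, under the fold minimum) and rose by 0.59 at the other (0.00235), and the second probe set of Cdkn1b, at 0.46 (0.00956), was under the fold minimum. Cdkn1b, which encodes the cell cycle inhibitor p27, rose by 0.88 (adjusted p 0.0192) and 0.61 (0.00625). Its second probe set rose by 0.84 after deletion (0.00352) and was called there. Cxcr4, a chemokine receptor, rose by 0.99 (0.0291) and 0.88 (0.0254). Its Cre control mean of 4.57 was near the background of 4.45, so the size of its rise after deletion is uncertain. Foxo3, a forkhead transcription factor, rose by 0.67 with AktI (0.0212) and differed by 0.06 after deletion (0.843). With AktI its other probe sets differed by 0.61 (0.0398) and 0.03 (0.904). Cdkn1a, which encodes the inhibitor p21, fell by 0.68 with AktI (0.00788) and differed by -0.30 after deletion (0.188). Its other probe set was not called with AktI (-0.47, 0.0781) and differed by 0.19 after deletion (0.287). These are transcripts, whereas the kinases act on the proteins.

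Several of these calls, checked only at the brightest probe set of each gene, ended when 1 array was left out. After deletion the Cdkn1b call ended without Cre control replicate 2 or 3 or null replicate 1 or 3, and that of Cxcr4 ended without Cre control replicate 2 or 3 or null replicate 2 or 3, and with a replicate block (adjusted p 0.0679). With AktI the Cxcr4 call ended without wild-type replicate 1 or 3 or AktI replicate 1 or 2. Foxo3 was not called without wild-type replicate 1 or 3 or AktI replicate 2 or 3, Cdkn1b without wild-type replicate 3 or AktI replicate 2, and Cdkn1a without AktI replicate 1.

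Akt1 and Akt2, the isoforms of the 3 that had a probe set of their own, were not called in either comparison (at an unadjusted p under 0.05, 0 in each). Akt2 differed by -0.14 (adjusted p 0.415) and -0.17 (0.331), and Akt1 by -0.10 (0.614) and -0.07 (0.631).

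Genes that Foxo factors control, which Akt is known to restrain by keeping these factors out of the nucleus, were read for comparison, with 4 of 5 measured; the study itself displayed genes of this kind from these arrays, so their counts are not independent evidence. After deletion 3 rose and none fell, and with AktI all 4 rose. The chemokine receptor Ccr7 rose by 1.59 (adjusted p 0.0296) and 1.62 (0.000129), the transcription factor Klf2 by 1.37 (0.0468) and 2.58 (0.000167), and the IL-7 receptor Il7r by 1.37 (0.0107) and 1.11 (0.000718). The egress receptor S1pr1 rose by 1.38 with AktI (0.000709) and differed by 0.66 after deletion (0.439; 0.0423 with a replicate block). After deletion the call of Klf2 ended without any 1 Cre control array or null replicate 1 or 3, that of Ccr7 without Cre control replicate 3 or null replicate 1 or 3, and that of Il7r without null replicate 3. The second probe set of Il7r, which was not checked in this way, rose by 1.57 after deletion (0.00373).

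Pim1 and Pdpk1 lie on the same chromosome, 17, and the floxed allele carries Pdpk1, so the genes around Pim1 were read in the RefSeq gene order of GRCm38.p6. Between Pdpk1 and Pim1 there are 158 measured genes, of which 2 were called higher and 2 lower after deletion (2.53%). Among all genes 1.01% were called higher and 0.357% lower. Of the 50 measured genes nearest to Pim1, 25 on each side, 3 were called higher and none lower (6.00%). These were Dnah8, a dynein heavy chain (1.35, adjusted p 0.00393), Glo1, the enzyme that detoxifies methylglyoxal (0.98, 0.000487), and Cpne5, a calcium-binding copine (0.74, 0.00689). Glo1 is 11 and Dnah8 13 measured genes beyond Pim1, and Cpne5 is 6 genes towards Pdpk1. The nearest measured genes, Fgd2 (0.12, 0.748) and Tmem217 (0.27, 0.494), were not called.

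Further towards Pdpk1, Baiap3 (-1.36, adjusted p 0.000487) and Gfer (-0.84, 0.00322) fell and Crebrf rose (0.74, 0.0205). The probe sets of Gfer, like those of Pim1, disagreed, with changes from -0.84 to 1.11. The Crebrf call ended without any 1 Cre control array or without null replicate 1. The null mice carry the floxed allele on every array and the Cre controls on none, so an effect of losing PDK1 and a difference of the chromosome that came with the allele cannot be told apart here.

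In the Akt experiment, where the arms were cells of the same mice, Glo1 differed by 0.25 (adjusted p 0.125), Dnah8 by 0.26 (0.346) and Cpne5 by -0.12 (0.487), and none was called. Among all genes 1.51% were called higher and 1.03% lower with AktI. Of the 50 nearest genes 1 was called higher and 1 lower (4.00%), which were Abcg1, a sterol transporter (0.95, 0.00163), and Cdkn1a at its brightest probe set. Of the 158 genes towards Pdpk1, 1 rose and 2 fell (1.90%): Abca3 (0.86, 0.000190) rose, Cdkn1a fell, and Dusp1 (-0.62, 0.00251) fell, a call that ended without wild-type replicate 1 or AktI replicate 1.

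**Figure D4:**
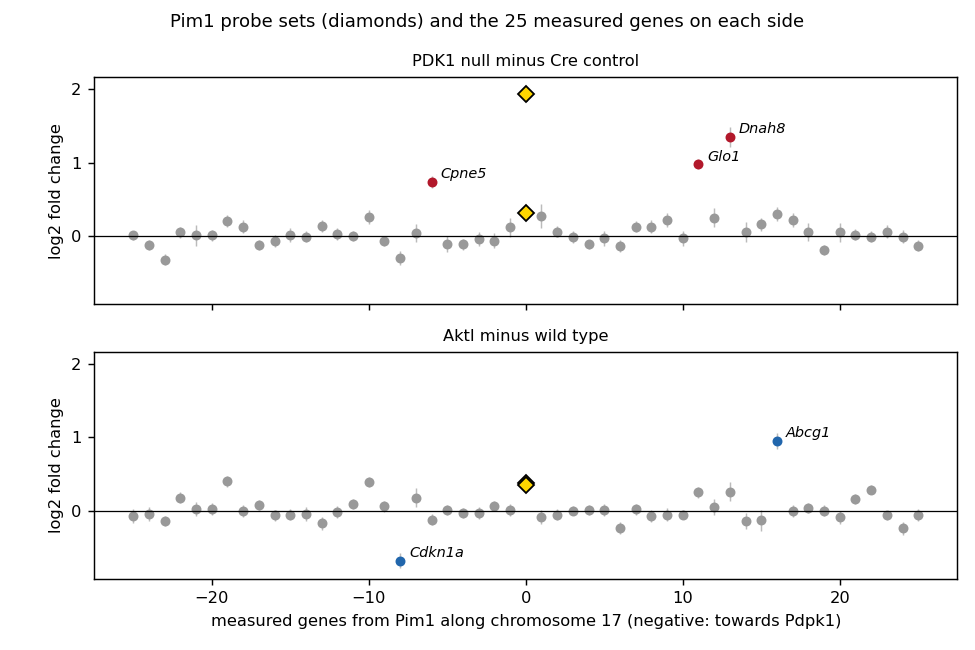
Log2 fold change with its standard error (vertical axis) of the 25 measured genes on each side of Pim1 in the order of the chromosome (horizontal axis, negative towards Pdpk1), with the Pim1 probe sets as diamonds at 0. After Pdpk1 deletion (upper panel) the coloured, called genes are Dnah8 at 1.35, Glo1 at 0.98 and Cpne5 at 0.74 and the Pim1 probe sets stand at 1.93 and 0.31; with AktI (lower panel) the called genes are Abcg1 at 0.95 and Cdkn1a at -0.68 and both Pim1 probe sets stand at 0.38 and 0.35.

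The genes whose pattern was most like that of each probe set were sought among 11446 genes above background, by Pearson's r over the 12 arrays after subtracting the control mean of each experiment. These points share arrays and groups, so r mostly reflects how the groups differ. For Pim1 at 1423006_at they were Glo1, its neighbour (r = 0.985), Reep3 (0.984) and the T cell receptor segment Trbv13-2 (0.984). At 1435458_at they were Inf2 (0.972), Fkbp1a (0.968) and Tnfrsf23 (0.965). The lists of the Pim1 probe sets had no gene in common, and neither had those of the Pim3 probe sets given below. Nothing is read from this, since the Pim1 disagreement was known beforehand.

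Pim2 was most like Dbp, a circadian transcription factor (0.991), Klf2 (0.991) and the pseudokinase Trib2 (0.990). Trib2 differed by 2.00 after deletion and 3.21 with AktI, Klf2 by 1.37 and 2.58, and Dbp by 0.52 and 1.01, beside 1.05 and 1.90 for Pim2. For Pim3 the likest genes were Impdh1 (0.959), Etfb (0.949) and Hilpda (0.947) at 1437100_x_at, and Pla2g12a (0.949), Gmds (0.947) and Tbc1d7 (0.932) at 1451069_at. All 6 had lower means after deletion and with AktI, by 0.41 or less.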

How the data were processed

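Deposited values were log2 signals, which the authors obtained with the robust multichip averaging of Affymetrix Expression Console 1.1, and they were used as deposited. Robust multichip averaging sets arrays to a common distribution, so changes are relative to the other transcripts. The medians differ between experiments, which were taken as normalized separately. Of 45101 probe sets 64 are controls. Of the 45037 tested, 34945 name 1 gene, 932 name several and 9160 name none. A listed or neighbouring gene was read at the brightest probe set that names it alone. Background was the 95th percentile of the receptor probe sets.

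The 6 arrays of an experiment were fitted alone, without covariates, by lmFit and eBayes of limma 3.58.1 (R 4.3.3), with Benjamini-Hochberg adjustment of p-values across every probe set tested. The main fit for AktI thus left out the pairing by mouse, which only the replicate block below used. Permuting 3 against 3 arrays cannot give a p below 0.1. The scripts were tested on simulated data. The methods' SAM (significance analysis of microarrays, at least 1.5-fold, 5% false calls at the 90th percentile) was rebuilt on the 20 relabellings as an alternative, with the 18th of them as that percentile. The other alternatives were quantile normalization, equal medians, limma with trend and robust, no dim probe sets, another fold minimum, 1 model over 12 arrays, the mean of a gene's probe sets, the replicate block, and each array left out in turn. For AktI the labels name the mouse of each array, so the numbers pair the samples, and deviations from the group means of same-numbered arrays correlated with r = 0.170, 0.0343 and 0.0607.

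The family, the lists and the tests were chosen with earlier results of these data known. The genes named are the Pim probe sets, Pdpk1, up to 4 called genes a list (the 2 largest changes where none was called), called neighbours of Pim1 and its nearest genes, and the 3 genes most like each Pim probe set. Cish, Bcl2l1, Map3k5, the Il2ra values with AktI and the cell type markers given with values were added after their values had been seen. So were the other probe sets of Cdkn1a, Cdkn1b, Foxo3, Il7r and Socs3. No protein sequence was used here. The number of arrays limits the precision.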

Additional observations from a re-analysis of the deposited data

How the results depend on the processing

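None of the 179 alternative values of the Pim probe sets changed direction. Many of them could not: SAM, trend and robust settings, another fold minimum, no dim probe sets, 1 model over 12 arrays and the replicate block keep the same difference of means. The rest reuse the same arrays, so nothing is read from this count. Leaving out 1 array gave 1 to 2 called Pim probe sets after Pdpk1 deletion (2 with all arrays) and 1 with AktI. With no fold minimum the AktI count was 3 rather than 1. The count of called list genes after deletion (6) was 3 at a 2-fold minimum and 0 to 5 with 1 array left out. With AktI (10) it was 16 with no fold minimum, 4 at a 2-fold minimum, 6 with the mean of the probe sets of a gene and 7 to 10 with 1 array left out. The count of called neighbours of Pim1 after deletion (6) was 10 with no fold minimum, 2 at a 2-fold minimum and 5 to 7 with 1 array left out. With AktI (4) it was 12, 0 and 2 to 4. Differences near 0 changed sign when 1 array was left out: Foxo3 ran from -0.03 to 0.12 and Fgd2 ran from -0.00 to 0.25 after deletion.

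The paired fit with a replicate block called 479 probe sets rather than 459 after deletion and 905 rather than 872 with AktI, and SAM called 533 and 936. Both kept 2 called Pim probe sets after deletion and 1 with AktI. The block changed the calls of Cxcr4 and S1pr1 after deletion. Among the other calls given in the report, none of those checked with the block changed. Second probe sets of pathway genes and cell type markers were not checked with it. In the Pdpk1 experiment replicates share only a number, with r of 0.0496, 0.0300 and -0.0110 between same-numbered arrays. With trend and robust settings Klf2 (adjusted p 0.0680) and Ccr7 (0.0510) were not called after deletion. With 3 arrays per group, signals near the background, such as that of Pim3 at 1438956_x_at, give no firm order.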
